A study of Mus musculus with 6 samples.

Results

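The nuclear genes for the subunits of respiratory chain complexes I, III, IV and V were examined in primary mouse hepatocytes transduced with nuclear CREBH. Members were all genes with an array feature annotated to exactly 1 symbol that begins with Nduf followed by a, b, c, s or v and a digit, or with Uqcr, Cox4 to Cox8, or Atp5, which gave 76 of the 18820 genes measured. By complex, 33 belonged to complex I, 7 to complex III, 19 to complex IV and 17 to complex V. Cox7c, Ndufa13 and Uqcrc2 had features that carry several symbols and were therefore not members. Ndufa4 was counted with complex IV, where its protein resides despite its name, together with its paralog Ndufa4l2.

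The respiratory chain of the inner mitochondrial membrane passes electrons from NADH and succinate to oxygen and uses the energy to pump protons. Complex I (NADH dehydrogenase) takes electrons from NADH, complex III (cytochrome bc1) hands them to cytochrome c, complex IV (cytochrome c oxidase) passes them to oxygen, and complex V (ATP synthase) makes ATP from the proton gradient. In each of these complexes, part of the subunits are encoded by mitochondrial DNA and the rest by nuclear genes. Hepatocytes are rich in mitochondria. CREBH, encoded by *Creb3l3*, is a liver-enriched transcription factor that is held in the endoplasmic reticulum membrane until proteolysis releases its nuclear fragment.

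Hepatocytes had been isolated from male wildtype C57BL/6J mice aged 8 to 10 weeks and plated in 60 mm dishes. The control group received an adenovirus for green fluorescent protein (Ad-GFP, n = 3 arrays) and the other group an adenovirus encoding the nuclear form of CREBH (Ad-nuclear CREBH, n = 3 arrays), both at 100 viral particles for each cell, and RNA was collected 24 h later. Both groups thus carried an adenovirus, and there was no untransduced group. Each array represents 1 dish, and because the dishes are not said to come from separate animals, the p-values measure the spread between dishes.

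Expression values are log2 units of hybridization signal, in which a difference of 1 is a doubling, and levels are not compared between genes because each gene has its own probes. A gene was said to have risen or fallen when limma's moderated test passed at an adjusted p under 0.05, with Benjamini-Hochberg adjustment across the 18820 genes. *Creb3l3* served as the check of the labels. It measured 8.49, 8.02 and 8.21 on the Ad-GFP arrays and 9.97, 10.46 and 10.59 on the Ad-nuclear CREBH arrays, a 4.29-fold rise (log2 fold change 2.10 ± 0.19 SE, adjusted p = 9e-05), and the groups did not overlap.

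The *Creb3l3* feature may register the delivered coding sequence, the endogenous transcript or both. Within groups the mean correlation of an array with the others was 0.986 to 0.994, and array medians ranged from 5.12 to 5.30 in the Ad-GFP group and from 5.05 to 5.12 in the Ad-nuclear CREBH group. The albumin gene *Alb*, which defines hepatocytes, lay between 13.23 and 13.33 on every array. Of 8 measured hepatocyte markers, 1 rose (*Apoa1*, 0.74) and 3 fell (*Fgb*, −2.29, *Cps1*, −1.21, and *Ahsg*, −0.75). The summed level of the 8 was 14.90 to 15.04 with Ad-GFP and 14.82 to 14.95 with Ad-nuclear CREBH. Of 7 macrophage markers, 1 rose (*Csf1r*, 0.61) and 3 fell (*Cd68*, −1.13, *Cd5l*, −0.64, and *Lyz2*, −0.57), a called share of 57.1%. Their summed levels were 11.35 to 11.78 and 10.15 to 11.27. These mostly follow *Cd68*, at 11.24 to 11.70 and 9.90 to 11.16. The call of *Cd68* (−1.13 ± 0.31) was lost without Ad-GFP replicate 1 or 2 or Ad-nuclear CREBH replicate 2 or 3. Its adjusted p was 0.00034 to 0.0814 over the leave-one-out fits. The other calls of this list were also lost in several of those fits. Stellate cell markers (7 measured) gave 0 rises, 1 fall and summed levels of 7.51 to 7.68 and 7.0 to 8.43. The fall was that of *Reln* (−1.90 ± 0.20 SE, adjusted p = 0.00016), which was called in every leave-one-out fit. Without Ad-nuclear CREBH replicate 1, *Col1a1* (2.43), *Col1a2* (1.51) and *Des* (0.69) were called as risen. Endothelial markers (6) gave 0 calls, at 7.90 to 8.33 and 7.91 to 8.22. Cholangiocyte markers (4) gave 1 rise (*Epcam*, 1.74) and 1 fall (*Krt19*, −1.06), both called in every leave-one-out fit. The cholangiocyte sums, at 7.90 to 9.15 and 8.66 to 9.25, mostly follow *Sox9*, which was not called with all arrays. Without Ad-GFP replicate 1, *Lyve1* (−0.63) among endothelial, *Acta2* (−0.73) among stellate and *Hnf4a* (−0.53) among hepatocyte markers were called as fallen and *Sox9* (1.02) among cholangiocyte markers as risen. The part of these other cell types in the results was not tested, and in such bulk samples a smaller number of cells of a type cannot be told apart from less RNA per cell.

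CREBH belongs to a family of factors that bind the cAMP response element, so the start regions of the member genes were searched for the palindrome TGACGTCA. RefSeq windows of 300 bases (250 before to 50 after the start site, GRCm38.p6) matched 63 of the 76 members by Entrez gene identifier. Of these members, 4 held these letters, *Ndufa10*, *Ndufa11*, *Ndufb2* and *Uqcrfs1*. Of the 4 genes, *Ndufb2* and *Uqcrfs1* are among the members that rose the most, whereas the others did not pass the test. Among all 63 matched members 13 were called, 10 of them as risen. A link between any motif and the calls was not tested. Capitals mark the element, each line reads 5′ to 3′ on the strand of the gene, and the stretch is clipped at the start site where it reaches it.
Ndufb2, chr6:39592521-39592564, plus strand: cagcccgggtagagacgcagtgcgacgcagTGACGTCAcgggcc
Uqcrfs1, chr13:30545317-30545375, minus strand: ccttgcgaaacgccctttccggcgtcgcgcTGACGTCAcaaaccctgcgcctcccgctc
Ndufa10, chr1:92473788-92473855, minus strand: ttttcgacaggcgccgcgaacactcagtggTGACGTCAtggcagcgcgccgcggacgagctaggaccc
Ndufa11, chr17:56717574-56717641, plus strand: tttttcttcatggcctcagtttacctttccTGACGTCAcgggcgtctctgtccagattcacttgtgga

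The element began 14 bases before the start site in *Ndufb2*, 29 in *Uqcrfs1*, 67 in *Ndufa10* and 158 in *Ndufa11*. It was present in 5.88% of the 68 member windows and in 1.79% of all 32851 windows. *Uqcr10*, the member with the largest rise, held no copy in its window. The variant TGACGTGG, bound by factors of the CREB3 family, occurred in 0 of the 68 member windows and in 0.676% of all windows. A sequence known to bind NRF1, GCATGCGC, was found in 13.2% of the member windows against 2.71% of all windows, with 2 called members, *Cox6a1* and *Ndufa6*, among 9. The YY1 sequence AAGATGGC was found in 14.7% against 2.75%, with *Ndufs4* the only called member among 10, and the GABPA sequence CCGGAAGT in 7.35% against 3.89%, with no called member among 5. Both strands were searched for each motif, and a match describes the letters in a window, not binding.

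Across the 4 complexes, 13 members rose and 3 fell, and 60 did not pass the test. The 16 called members were 21.1% of 76, where 37.4% of all genes were called, 19.2% as risen and 18.2% as fallen. The share of all genes includes genes of low level, whereas 69 members lay above the median level of all genes. In a fit of the 9410 genes above that level alone, 2895 rose and 2967 fell. In that fit 15 of the 69 members rose and 8 fell. The changes were small. The median absolute log2 fold change was 0.20 over the members and 0.29 over all genes, and 4 members (5.26%) against 32.1% of all genes differed by more than 1.5-fold. For 51 members (67.1%) the 95% interval lay within 1.5-fold in either direction, against 44.4% of all genes, and 47 of these 51 were not called. The 3 Ad-GFP values and the 3 Ad-nuclear CREBH values did not overlap for 31 members, 18 upward and 13 downward, which is 40.8% where the share among all genes was 49.4%. By the study's criteria (p under 0.001, a change of over 2-fold either way, and an average linear signal above 300 in 1 group or both), 1 member, *Uqcr10*, was selected, where 8.09% of all genes were.

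**Figure D1:**
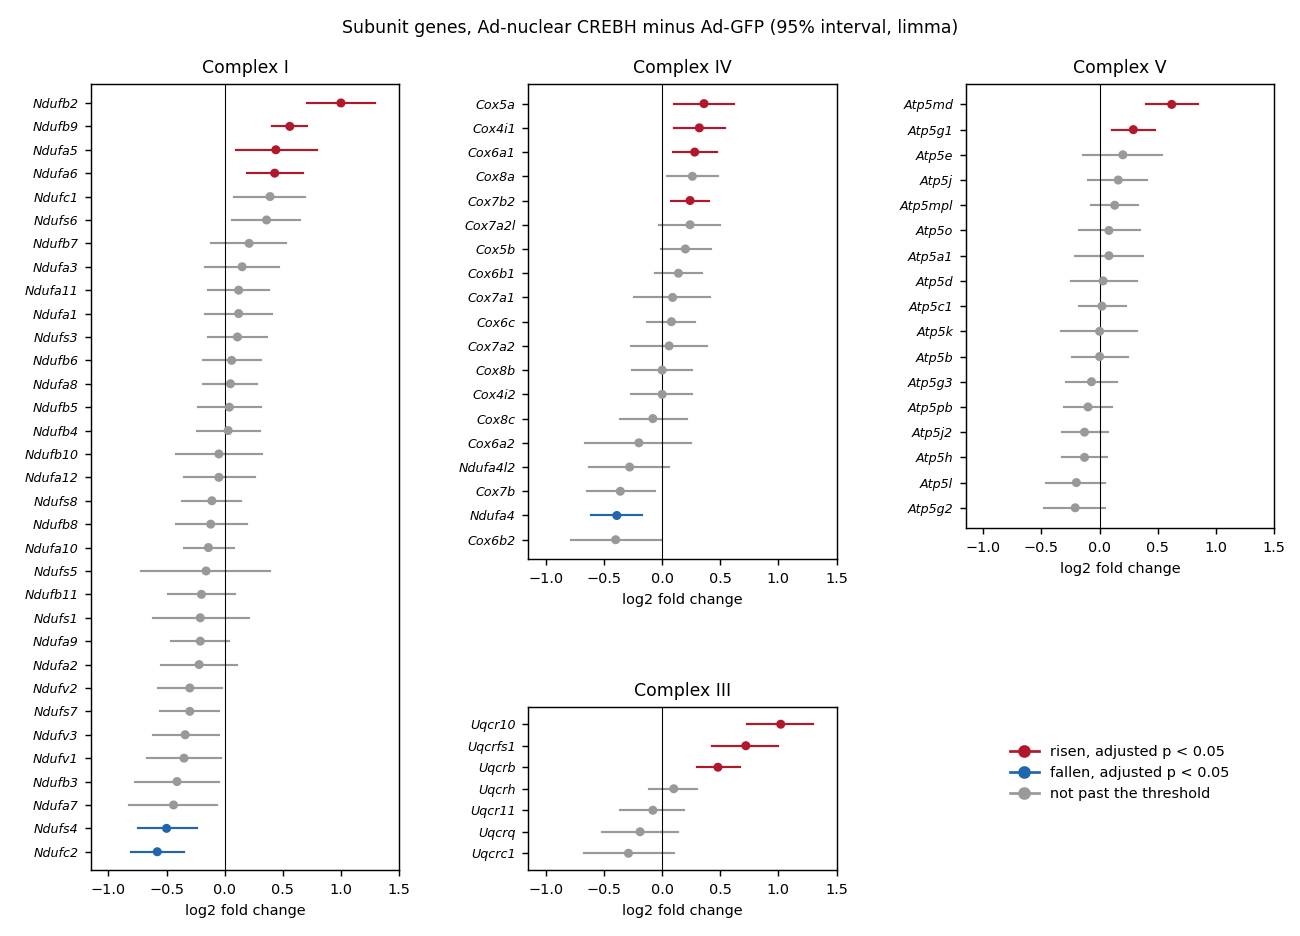
Log2 fold change (Ad-nuclear CREBH minus Ad-GFP, x axis) of each member gene, by complex, with limma's 95% interval as a bar. The 13 risen members are red, the 3 fallen members blue and the 60 others grey, and all lie between −0.58 and 1.02.

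**Figure D2:**
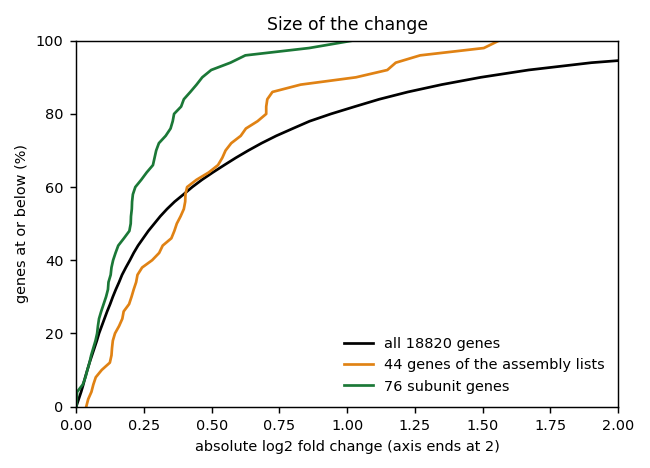
Cumulative share of genes (y axis, percent) at or below each absolute log2 fold change (x axis) for all 18820 genes, the 76 subunit genes and the 44 genes of the assembly lists, which include the inhibitor *Atpif1*. The subunit curve reaches 100% near 1, and its median of 0.20 lies left of the 0.29 of all genes and the 0.37 of the assembly lists.

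Complex I had 4 risen members, *Ndufb2*, *Ndufb9*, *Ndufa5* and *Ndufa6*, and 2 fallen members, *Ndufc2* and *Ndufs4*, out of 33. All 6 are accessory subunits, which surround the catalytic core, and the 6 measured core subunits gave 0 calls on the values as deposited with all 6 arrays. That contrast did not hold throughout. Core members were called as fallen after quantile normalization (3, *Ndufs7*, *Ndufv1* and *Ndufv2*), with array weights, with arrays centred on the members and without Ad-GFP replicate 1 (2 each, *Ndufs7* and *Ndufv1*), with a replicate block or among genes above the median level (1 each, *Ndufs7*), and with both arrays numbered 1 left out (4, including *Ndufs1*). The called share of complex I was 18.2%, below the 37.4% of all genes, and 1 of its members differed by more than 1.5-fold. The median log2 fold change of the complex was −0.05, beside 0.04 for all genes, and over the scalings it ran from −0.11 with arrays centred on the members to 0.09 with arrays centred on all genes. Over the leave-one-out fits it ran from −0.12, without Ad-GFP replicate 1 or Ad-nuclear CREBH replicate 2, to 0.01 without Ad-nuclear CREBH replicate 1.

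*Ndufb2*, an accessory subunit of the membrane arm, measured 6.76, 6.78 and 6.87 with Ad-GFP and 7.76, 7.81 and 7.86 with Ad-nuclear CREBH. All 3 CREBH arrays lay above the controls, and the spread within each group was small beside the distance between them. The rise was 2.0-fold (log2 fold change 1.00 ± 0.13 SE, adjusted p = 0.00044), the largest in complex I. *Ndufb9*, a membrane arm subunit of the LYR-motif family that contacts the mitochondrial acyl carrier protein, measured 11.79, 11.81 and 11.81 with Ad-GFP and 12.29, 12.40 and 12.40 with Ad-nuclear CREBH. Its control arrays were nearly equal, and the groups were separate. It rose 1.47-fold (0.56 ± 0.07 SE, adjusted p = 0.00032).

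The other LYR-motif subunit, *Ndufa6*, measured 9.33, 9.21 and 9.22 with Ad-GFP and 9.60, 9.78 and 9.68 with Ad-nuclear CREBH. The groups did not overlap, and the gene rose 1.35-fold (0.43 ± 0.10 SE, adjusted p = 0.0121). *Ndufa5*, a subunit of the arm that reaches into the matrix, measured 8.11, 8.13 and 8.21 with Ad-GFP and 8.31, 8.78 and 8.70 with Ad-nuclear CREBH. Replicate 1 of the CREBH group was close to the controls and the other 2 arrays were higher. The rise was 1.36-fold and just inside the threshold (0.44 ± 0.15 SE, adjusted p = 0.0492). Both calls were lost in leave-one-out fits, which have fewer arrays. The log2 fold change stayed positive there, at 0.38 to 0.48 for *Ndufa6* and 0.35 to 0.59 for *Ndufa5*. For *Ndufa6* the call was lost without Ad-GFP replicate 2 or 3 or Ad-nuclear CREBH replicate 2 or 3 (adjusted p 0.00519 to 0.0668 over the leave-one-out fits), and for *Ndufa5* without any array other than Ad-nuclear CREBH replicate 1 (0.00757 to 0.185). Neither was called when arrays were centred on the members, and *Ndufa5* was also not called after quantile normalization.

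Of the fallen genes, *Ndufc2*, a membrane arm subunit, measured 9.79, 9.93 and 9.80 with Ad-GFP and 9.21, 9.29 and 9.28 with Ad-nuclear CREBH. *Ndufs4*, an accessory subunit of the NADH-oxidizing module whose loss causes mitochondrial disease in humans and mice, measured 8.90, 9.06 and 9.01 with Ad-GFP and 8.47, 8.54 and 8.46 with Ad-nuclear CREBH. In both genes all 3 CREBH arrays lay below all 3 controls. *Ndufc2* was 1.49-fold lower (−0.58 ± 0.10 SE, adjusted p = 0.00232) and *Ndufs4* 1.41-fold lower (−0.50 ± 0.11 SE, adjusted p = 0.00812).

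The core subunits hold the flavin and iron-sulfur clusters through which electrons travel to ubiquinone. Their log2 fold changes ranged from −0.35 to 0.11 with a median of −0.25, and 1 of the 6, *Ndufs3*, had a positive value. *Ndufs7*, which contributes the last iron-sulfur cluster before ubiquinone, measured 9.90, 10.15 and 10.09 with Ad-GFP and 9.72, 9.85 and 9.65 with Ad-nuclear CREBH. Its groups did not overlap, yet the difference of −0.30 (95% interval −0.56 to −0.05) did not pass (adjusted p = 0.0611), while it was −0.38 and passed without Ad-GFP replicate 1. *Ndufv1*, the flavin-binding subunit, gave −0.35 (−0.67 to −0.03, adjusted p = 0.0857).

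Without Ad-GFP replicate 1, 5 members of complex I fell in place of 2. Among the other accessory subunits, *Ndufa10* gave −0.14 (−0.35 to 0.08), *Ndufa8* gave 0.05 (−0.19 to 0.28) and *Ndufb4* gave 0.03 (−0.24 to 0.30), and their groups overlapped. *Ndufa11*, which holds the response element printed above, gave 0.12 (−0.14 to 0.38). For 19 of the 27 members of the complex that were not called, the interval lay within 1.5-fold.

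Complex III had 3 risen members and no fallen member among 7, a called share of 42.9% where that of all genes was 37.4%. All 7 lay above the median level of all genes. In the fit of the 9410 genes above it the same 3 rose, beside 2895 risen and 2967 fallen genes. Of the 7 members, *Uqcr10* and *Uqcrfs1* differed by more than 1.5-fold. The median log2 fold change of the complex was 0.10, and was 0.00 after quantile normalization. Its catalytic cytochrome c1 subunit is listed separately below, and its cytochrome b is encoded in mitochondrial DNA.

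*Uqcr10*, a small subunit that lies beside the iron-sulfur protein and cytochrome c1, measured 8.30, 8.32 and 8.35 with Ad-GFP and 9.23, 9.53 and 9.26 with Ad-nuclear CREBH. The control arrays were nearly equal and every CREBH array lay well above them. The gene rose 2.02-fold (log2 fold change 1.02 ± 0.12 SE, adjusted p = 0.00036), the largest rise of all 76 members, and its second feature gave 0.70 ± 0.21. *Uqcrfs1*, the Rieske iron-sulfur protein that carries electrons from ubiquinol to cytochrome c1, measured 8.72, 8.83 and 8.91 with Ad-GFP and 9.37, 9.57 and 9.67 with Ad-nuclear CREBH. Again the groups were apart, and the gene rose 1.64-fold (0.72 ± 0.12 SE, adjusted p = 0.00226).

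*Uqcrb*, a subunit next to the ubiquinone site, measured 10.79, 10.89 and 10.96 with Ad-GFP and 11.34, 11.34 and 11.42 with Ad-nuclear CREBH. It rose 1.40-fold (0.48 ± 0.08 SE, adjusted p = 0.002), and the groups did not overlap. The other 4 members had overlapping groups. *Uqcrc1*, a core protein on the matrix side, measured 9.10, 9.53 and 9.41 with Ad-GFP and 8.77, 9.24 and 9.16 with Ad-nuclear CREBH. In both groups replicate 1 was the lowest, and the difference of −0.29 (−0.67 to 0.10) did not pass (adjusted p = 0.227), although with a replicate block (−0.29) and with both arrays numbered 1 left out (−0.27) it was called as fallen. *Uqcrq* gave −0.19 (−0.52 to 0.14), *Uqcrh*, the hinge protein that contacts cytochrome c1, 0.10 (−0.11 to 0.30) and *Uqcr11* −0.08 (−0.36 to 0.19). The second features of *Uqcrh* (−0.08) and *Uqcr11* (0.13) had the opposite sign to the first, whereas all features agreed in sign in the other 20 members with several features.

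Complex IV had 4 risen members and 1 fallen member among 19, a called share of 26.3% against the same 37.4%, and none differed by more than 1.5-fold. The median log2 fold change was 0.08, and it was 0.17 over the 10 subunits found in all tissues, of which 8 had positive values, 3 rose and 1 fell. None of these calls held in every alternative. With the arrays centred on the members 0 rose and 2 fell, and with arrays centred on all genes 7 rose and 0 fell.

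*Cox5a* and *Cox4i1* encode the 2 nuclear subunits that join first around the mitochondrially encoded catalytic subunit during assembly. *Cox5a* measured 8.81, 8.68 and 8.68 with Ad-GFP and 9.19, 9.0 and 9.06 with Ad-nuclear CREBH. *Cox4i1* measured 10.24, 10.02 and 10.06 with Ad-GFP and 10.45, 10.42 and 10.43 with Ad-nuclear CREBH. In both genes every CREBH array was higher than every control, and the highest control was replicate 1. *Cox5a* rose 1.28-fold (0.36 ± 0.11 SE, adjusted p = 0.0369) and *Cox4i1* rose 1.25-fold (0.32 ± 0.10 SE, adjusted p = 0.0283). *Cox6a1*, the form of subunit VIa used in liver, measured 11.43, 11.32 and 11.20 with Ad-GFP and 11.62, 11.59 and 11.58 with Ad-nuclear CREBH, and rose 1.21-fold (0.28 ± 0.08 SE, adjusted p = 0.0276). Its second feature gave 0.20 ± 0.18, and the call was lost when the features were averaged.

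The calls of *Cox5a*, *Cox4i1* and *Cox6a1* were lost in every leave-one-out fit except that without Ad-GFP replicate 1, with adjusted p of 0.0143 to 0.127, 0.00432 to 0.112 and 0.0061 to 0.113. *Ndufa4* measured 10.94, 11.10 and 11.17 with Ad-GFP and 10.67, 10.60 and 10.76 with Ad-nuclear CREBH. It was the only member of the complex to fall, with all CREBH arrays below the controls (1.31-fold lower, −0.39 ± 0.10 SE, adjusted p = 0.0126). The call was lost without Ad-GFP replicate 2 or 3 or Ad-nuclear CREBH replicate 2 (0.00283 to 0.0601 over the leave-one-out fits), and with arrays centred on all genes (−0.25).

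Among the other subunits found in all tissues, *Cox7b* measured 10.07, 10.31 and 10.31 with Ad-GFP and 9.71, 10.06 and 9.85 with Ad-nuclear CREBH. The groups did not overlap, but the difference of −0.36 (−0.65 to −0.06) did not pass (adjusted p = 0.0587). *Cox6c* gave 0.08 (−0.13 to 0.28) and *Cox6b1* gave 0.14 (−0.06 to 0.34), with overlapping groups. *Cox7a2l*, which encodes a factor that joins complexes III and IV rather than a subunit of the enzyme, gave 0.24 (−0.03 to 0.50, adjusted p = 0.147).

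Of the 8 isoforms known from other tissues, 1 was called (12.5%, beside 37.4% of all genes). *Ndufa4l2*, the hypoxia-responsive paralog of *Ndufa4*, measured 8.75, 8.95 and 8.54 with Ad-GFP and 8.28, 8.57 and 8.54 with Ad-nuclear CREBH. Its groups overlapped, and the difference was −0.28 (−0.63 to 0.06). The heart and muscle forms *Cox6a2*, *Cox7a1* and *Cox8b* gave −0.20 (−0.66 to 0.25), 0.09 (−0.24 to 0.41) and 0.00 (−0.26 to 0.26). The lung form *Cox4i2* gave 0.00 (−0.27 to 0.26), and the testis forms *Cox6b2* and *Cox8c* gave −0.40 (−0.78 to −0.01, adjusted p = 0.101) and −0.08 (−0.36 to 0.21).

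The remaining testis form, *Cox7b2*, rose within a range of 2.14 to 2.48 (0.24 ± 0.07 SE, adjusted p = 0.0247). RMA values this low compress log2 differences, and the call was lost without Ad-GFP replicate 1 or 3 or Ad-nuclear CREBH replicate 2 or 3 (0.0406 to 0.0794 over the leave-one-out fits). It was also lost after cyclic loess and with arrays centred on the members.

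Complex V had 2 risen members and no fallen member among 17, a called share of 11.8% where that of all genes was 37.4%. It was the most narrowly bounded of the 4 complexes. The 95% interval lay within 1.5-fold for 16 of 17 members (94.1%, against 44.4% of all genes). The median absolute log2 fold change was 0.13, beside 0.29 for all genes. The median log2 fold change was 0.02, and it was −0.03 with the arrays centred on the members, −0.04 when Ad-GFP replicate 1 was left out and −0.02 when Ad-nuclear CREBH replicate 2 was.

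*Atp5md*, which encodes a small membrane protein of the ATP synthase that takes part in its dimerization, measured 11.30, 11.02 and 11.05 with Ad-GFP and 11.68, 11.73 and 11.83 with Ad-nuclear CREBH. The highest control was replicate 1, and it was still below the lowest CREBH array. The rise was 1.54-fold (0.62 ± 0.10 SE, adjusted p = 0.00139). *Atp5g1* encodes the c subunit of the rotor ring, measured 11.35, 11.48 and 11.52 with Ad-GFP and 11.67, 11.77 and 11.79 with Ad-nuclear CREBH, and rose 1.23-fold (0.29 ± 0.08 SE, adjusted p = 0.0207). Its second feature gave 0.28 ± 0.07. This call was lost without Ad-GFP replicate 2 or Ad-nuclear CREBH replicate 2 or 3 (0.0187 to 0.0874 over the leave-one-out fits), after cyclic loess and with the arrays centred on the members.

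The *Atp5g2* and *Atp5g3* genes, which encode the same mature c subunit, gave −0.21 (−0.48 to 0.05) and −0.07 (−0.29 to 0.15) and were not called. Whether the 3 genes differed from each other in response was not tested. The catalytic F1 head gave 0 calls among 5 members, where 37.4% of all genes were called. *Atp5b*, the catalytic beta subunit, measured 11.79, 12.05 and 12.05 with Ad-GFP and 11.80, 12.00 and 12.08 with Ad-nuclear CREBH. Replicate 1 was the lowest in each group by a similar amount, and the difference was 0.00 (−0.24 to 0.24). *Atp5a1* (alpha subunit) gave 0.08 (−0.21 to 0.37) and *Atp5d* (delta subunit) 0.03 (−0.25 to 0.32). In the peripheral stalk, *Atp5h* gave −0.13 (−0.32 to 0.06).

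**Figure D3:**
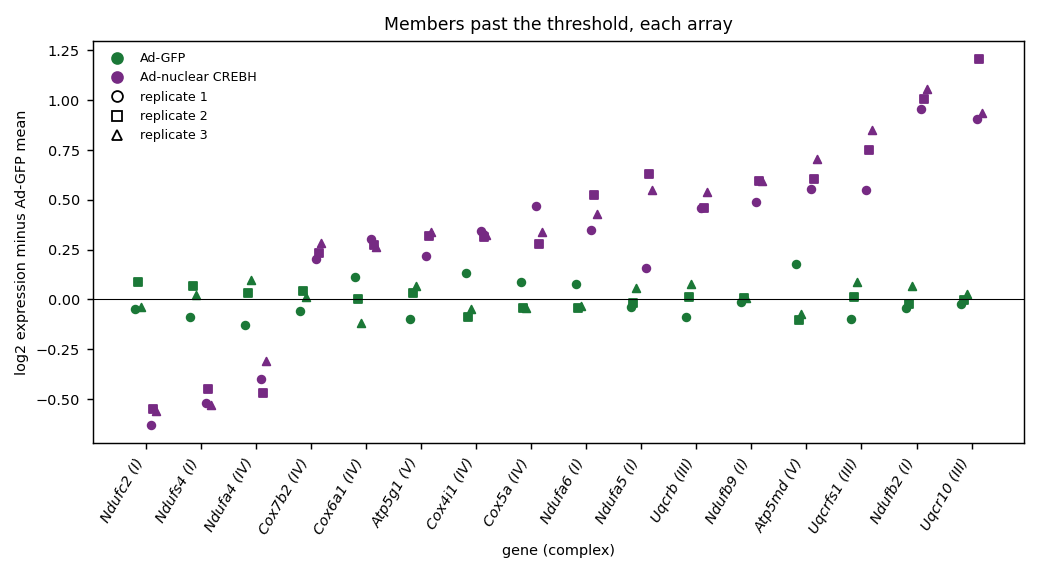
Log2 expression minus the gene's Ad-GFP mean (y axis) on each array for the 16 called members (x axis, complex in brackets), Ad-GFP in green and Ad-nuclear CREBH in purple, with a symbol for each replicate. The groups do not overlap in any of the 16, and *Ndufa5* shows the widest spread among CREBH arrays, from 8.31 to 8.78 before subtraction.

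The counts of calls varied with the scaling of the arrays. Against 13 risen and 3 fallen as deposited, cyclic loess gave 11 and 3, quantile normalization 10 and 8, centring on the members 6 and 6, and centring on all genes 19 and 2. The last of these moved the median of all genes to 0.18, a shift of 0.14. Centring on the members sets their median alike on every array, so a change that they share is taken out by construction. The counts also rested on the 2 arrays numbered 1, which were the farthest from their groups. With both left out, 22 members rose and 16 fell, while 4377 and 4765 of all genes did. Of the 16 called members, 8 were called in the same direction in every alternative tried apart from stricter thresholds. These were *Ndufb2*, *Ndufb9*, *Ndufc2*, *Ndufs4*, *Uqcr10*, *Uqcrfs1*, *Uqcrb* and *Atp5md*, and over those alternatives *Ndufb2* ranged from 0.95 to 1.14, *Uqcr10* from 0.86 to 1.16 and *Ndufc2* from −0.69 to −0.44.

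**Figure D4:**
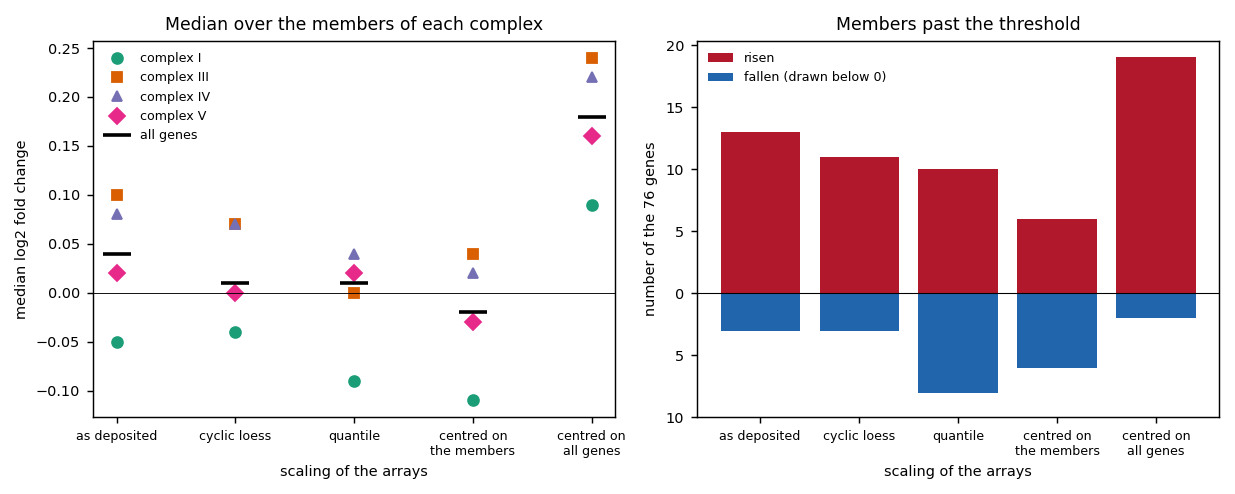
Left, median log2 fold change (y axis) of each complex and of all genes under 5 scalings of the arrays (x axis). Right, number of the 76 members risen (above 0) and fallen (drawn below 0) under each, from 13 and 3 as deposited to 10 and 8 after quantile normalization and 19 and 2 with arrays centred on all genes.

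Complex II, which shares the chain but pumps no protons, gave 0 rises and 1 fall among 4 genes, beside 37.4% of all genes called. *Sdhb*, its iron-sulfur subunit, was 1.28-fold lower (−0.36 ± 0.11 SE, adjusted p = 0.031), a call lost without any array other than Ad-GFP replicate 1 (0.00847 to 0.118) and with arrays centred on all genes (−0.21). *Sdha*, the flavoprotein, measured 9.04, 9.58 and 9.60 with Ad-GFP and 9.91, 9.80 and 9.89 with Ad-nuclear CREBH. Ad-GFP replicate 1 lay far below the other controls, and the difference of 0.46 (0.09 to 0.83) missed the threshold (adjusted p = 0.0555) but passed it without that array, at a smaller difference of 0.28. *Sdhc* gave 0.36 (−0.22 to 0.93) and *Sdhd* 0.31 (−0.06 to 0.67).

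Cytochrome c (*Cycs*) gave 0.15 (−0.07 to 0.37) and cytochrome c1 (*Cyc1*) −0.07 (−0.41 to 0.27). *Cycs* was called, at 0.24, when Ad-GFP replicate 1 was left out. By contrast *Hccs*, the lyase that attaches heme to both proteins, measured 8.51, 8.10 and 8.33 with Ad-GFP and 10.00, 10.15 and 10.13 with Ad-nuclear CREBH. The groups were more than a log2 unit apart, and the gene rose 3.43-fold (1.78 ± 0.13 SE, adjusted p = 4e-05). None of the 13 mitochondrially encoded subunits had a value among the genes analysed.

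Assembly factors build the complexes without remaining in them. Their 4 lists, that of complex V including the ATP synthase inhibitor *Atpif1*, held 44 measured genes. Of these, 5 rose and 12 fell (38.6% called, beside 37.4% of all genes), and 40 lay above the median level of all genes. Their median absolute log2 fold change was 0.37, beside 0.20 for the subunits, and their median log2 fold change was −0.18. The difference from the subunits was not tested. For complex I, 1 of 14 rose and 5 fell. *Ndufaf3*, which acts in building the matrix arm together with *Ndufaf4*, measured 5.94, 6.61 and 6.55 with Ad-GFP and 5.28, 5.20 and 5.09 with Ad-nuclear CREBH. All CREBH arrays lay below the controls, and *Ndufaf3* was 2.27-fold lower (−1.18 ± 0.20 SE, adjusted p = 0.00232). *Ndufaf4* fell by 0.72 on the log2 scale (adjusted p = 0.00853) and *Foxred1* by 0.70 (adjusted p = 0.00496). *Ndufaf5*, which modifies *Ndufs7*, fell by 0.61, and *Ecsit* rose by 0.51. The *Ndufaf5* call was lost without Ad-nuclear CREBH replicate 3 (adjusted p = 0.0551, in a leave-one-out range of 0.011 to 0.0551) and that of *Ecsit* without Ad-nuclear CREBH replicate 2 or 3 (0.0112 to 0.0572).

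Of the 6 assembly factors of complex III, 1 rose and 3 fell (66.7% called, beside 37.4% of all genes). Their median absolute log2 fold change was 0.87, beside 0.29 for all genes. Of the 7 subunits of that complex 3 rose, and a difference between subunits and assembly factors was not tested. *Bcs1l*, the ATPase that inserts the Rieske protein encoded by *Uqcrfs1*, measured 7.01, 7.67 and 7.37 with Ad-GFP and 5.69, 6.00 and 5.88 with Ad-nuclear CREBH. It was 2.82-fold lower (−1.49 ± 0.20 SE, adjusted p = 0.00056), with the groups far apart. *Ttc19*, which clears fragments of the Rieske protein after its insertion, measured 6.54, 6.74 and 6.84 with Ad-GFP and 7.83, 7.90 and 7.92 with Ad-nuclear CREBH, and rose 2.26-fold (1.18 ± 0.14 SE, adjusted p = 0.0003). *Uqcc3* and *Uqcc2*, which serve the early cytochrome b intermediate, fell by 1.11 (adjusted p = 0.0146) and 0.63 (adjusted p = 0.0121). The first call was lost without Ad-nuclear CREBH replicate 1 (0.00439 to 0.0509 over the leave-one-out fits) and the other without Ad-nuclear CREBH replicate 2 or 3 (0.00492 to 0.0564).

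For complex IV, 3 of 19 assembly factors rose and 4 fell (36.8% called, beside 37.4% of all genes). *Cox19*, a copper-handling factor, measured 7.0, 7.50 and 7.43 with Ad-GFP and 8.79, 8.90 and 8.92 with Ad-nuclear CREBH, and rose 2.95-fold (1.56 ± 0.16 SE, adjusted p = 0.00016). *Cox11*, which delivers copper to the catalytic subunit, rose 1.63-fold (0.70 ± 0.13 SE, adjusted p = 0.00375). *Coa5* was 1.80-fold lower (−0.85 ± 0.15 SE, adjusted p = 0.00234). These 3 calls held in every leave-one-out fit. *Lrpprc* (0.40), which stabilizes mitochondrial transcripts, *Cox15* (−0.70), an enzyme of heme a synthesis, *Cox18* (−0.55) and *Surf1* (−0.40) were each called with all arrays. The leave-one-out adjusted p reached 0.0914 for *Lrpprc* (lost without Ad-GFP replicate 2 or any CREBH array), 0.105 for *Cox15* (without Ad-GFP replicate 2 or 3 or Ad-nuclear CREBH replicate 1 or 3), 0.0703 for *Cox18* (without Ad-GFP replicate 2 or Ad-nuclear CREBH replicate 2 or 3) and 0.165 for *Surf1* (without any array other than Ad-nuclear CREBH replicate 1). *Lrpprc* was not called after quantile normalization, and *Cox18* and *Surf1* were not called with arrays centred on all genes. The complex V list of assembly factors and inhibitor gave 0 calls among 5 genes, with values of −0.38 to −0.14. The inhibitor gene *Atpif1* had the value −0.38 (−0.68 to −0.08, adjusted p = 0.0524), and it was called, at −0.53, without Ad-GFP replicate 1.

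Regulators of mitochondrial biogenesis gave 4 rises and 3 falls among 18 measured genes, a called share of 38.9% beside the 37.4% of all genes. Of these 18 genes, 16 lay above the median level of all genes. *Tfb2m*, the factor that opens mitochondrial promoters for the polymerase, measured 8.97, 8.62 and 8.66 with Ad-GFP and 9.73, 9.80 and 9.91 with Ad-nuclear CREBH. It rose 2.09-fold (1.06 ± 0.13 SE, adjusted p = 0.0004), with separate groups, whereas *Polrmt*, the mitochondrial RNA polymerase itself, was 1.77-fold lower (−0.82 ± 0.17 SE, adjusted p = 0.00529). *Pprc1*, a coactivator of the PGC-1 family, rose by 1.00 on the log2 scale, *Twnk*, the replicative helicase, by 0.91, and *Gabpb2*, a partner of the GABPA factor, by 0.68 (adjusted p = 0.00272, 0.00095 and 0.00221). *Esrra*, a nuclear receptor that activates genes of oxidative phosphorylation, measured 6.97, 6.75 and 6.91 with Ad-GFP and 5.75, 5.76 and 6.01 with Ad-nuclear CREBH. It was 2.05-fold lower (−1.03 ± 0.15 SE, adjusted p = 0.00096), and *Polg2*, the accessory subunit of the mitochondrial DNA polymerase, 1.99-fold lower (−0.99 ± 0.22 SE, adjusted p = 0.00816). *Gabpa* (0.22, −0.06 to 0.50) and *Yy1* (0.06, −0.20 to 0.32), whose binding sequences were searched above, were not called.

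**Figure D5:**
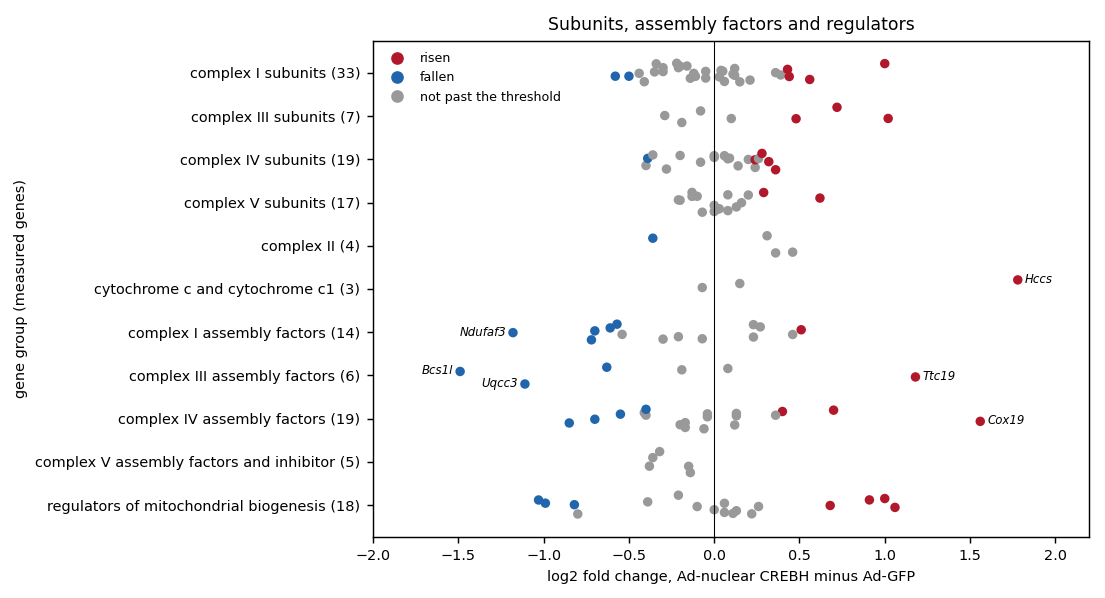
Log2 fold change (x axis) of each measured gene in the 4 groups of subunits and 7 other groups (y axis, number of genes in brackets), risen in red, fallen in blue and others grey, with vertical scatter for display only. The subunits lie between −0.58 and 1.02, while assembly factors reach from −1.49 (*Bcs1l*) to 1.56 (*Cox19*) and *Hccs* stands at 1.78.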

How the data were processed

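Log2 values from an Affymetrix mouse gene array, deposited by the authors, were RMA output (background correction, normalization across arrays, 1 summary per transcript). No version, array definition or genome build is given in the sources used here, and the RNA columns named in the labels and in the methods differ. Gene symbols came from the platform annotation (21218 features with 1 symbol, 1881 with several, 12457 with none), and each gene was represented by its feature of highest mean. RMA values carry no background flag, and low values understate a fold change.

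Models were fitted with limma 3.58.1 in R 4.3.3 (lmFit, then eBayes with trend, for the Ad-nuclear CREBH effect relative to Ad-GFP, with 4 residual and 3.97 prior degrees of freedom) with Benjamini-Hochberg adjustment over all 18820 genes, and were tested on simulated data. No permutation test was used for single genes, since 3 against 3 arrays cannot give an exact two-sided p under 0.1. The number of arrays limits the precision. Intervals are limma's 95% confidence intervals.

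Members and lists were chosen with earlier results of these data known. Named genes were *Creb3l3*, each called member, each isoform of another tissue and up to 4 of the highest not called per complex. In each other list they were up to 4 rises, 4 falls and 3 genes not called, and in marker lists the 2 highest. *Ndufv1*, *Ndufv2*, *Ndufs1*, *Ndufs3*, *Ndufa11*, *Atp5g2* and *Atp5g3* were named after their values were seen. So were the markers *Fgb*, *Cps1*, *Ahsg*, *Hnf4a*, *Csf1r*, *Cd5l*, *Col1a2*, *Des*, *Acta2*, *Lyve1* and *Krt19*. In the study's criteria the fold was that of mean log2 values, and the level was the arithmetic mean of linear values. Alternatives covered the variance prior, the methods' intensity-based statistic, array weights, a replicate block, 4 scalings, the feature per gene, a filter on level, stricter calls and left-out arrays. Marker sums are the log2 of summed linear values. Figures were drawn with matplotlib 3.10.9.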

Additional observations from a re-analysis of the deposited data

How the results depend on the processing

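No named gene was called in opposite directions under the alternatives run, but the balance of calls within complexes varied. After quantile normalization complex I went from 4 risen and 2 fallen to 3 and 6, and complex IV from 4 and 1 to 2 and 2. With arrays centred on the members complex IV gave 0 and 2, but that centring takes out by construction any change that the members share. The range over leaving out each array in turn was 2 to 5 risen and 2 to 5 fallen for complex I, 3 risen throughout for complex III, 0 to 5 risen and 0 to 3 fallen for complex IV, 1 to 2 risen and 0 to 1 fallen for complex V, and 8 to 14 risen and 9 to 21 fallen in the other lists. With array weights, which were lowest for both arrays numbered 1 (0.26 and 0.41), complex I gave 7 risen and 9 fallen, complex IV 7 and 3, complex V 2 fallen and the other lists 25 fallen. With both of those arrays left out, complex I gave 8 and 10, complex III 1 fallen, complex IV 7 and 3, complex V 4 and 2, and the other lists 17 and 28. Quantile normalization gave 6 fallen in complex I and 2 risen and 2 fallen in complex IV, with medians of 0.00 for complex III and 0.04 for complex IV. Centring on all genes gave 7 risen and 0 fallen in complex IV and medians of 0.09, 0.24, 0.22 and 0.16 for complexes I, III, IV and V. Centring on the members, an alternative chosen after seeing the data, gave 2 risen and 4 fallen in complex I, 0 and 2 in complex IV and 1 risen in complex V. Without an intensity trend 2 members of complex IV and 1 of complex V rose, and cyclic loess left 1 risen in complex V. Among the 9410 genes above the median level, of which 2895 rose and 2967 fell, complex I had 6 and complex IV 2 fallen members. Without isoforms and related proteins the median of complex IV was 0.17. At an adjusted p under 0.01, 2 members rose in complex I, 0 rose and 0 fell in complex IV, 1 rose in complex V and 8 genes of the other lists fell. By the study's criteria 927 genes rose and 595 fell, with 0 members of complexes I, IV and V, 1 risen in complex III, and 3 risen and 0 fallen in the other lists. The cause of these differences was not tested. Replicate numbers were not treated as pairs in the main fit, since the labels do not state a pairing. The deviations of same-numbered arrays from their group means correlated weakly but positively, at 0.178, 0.073 and 0.139 over 18820 genes. Of the 6 arrays, 4 correlated best with their own number among the 3 arrays of the other group. This check does not show that same-numbered arrays are independent. A fit with the replicate block gave 4 fallen in complex I, 1 in complex III and 2 in complex IV, and 15 risen and 7 fallen members in all.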
